A study of Drosophila melanogaster with 12 samples.

Results

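Jheh1 encodes 1 of the juvenile hormone epoxide hydrolases of Drosophila melanogaster, and its transcript was read by a single probe set, 142196_AT (gene identifier Dmel_CG15101, chromosome arm 2R). It was chosen by its identity and, with earlier results of these data known, for its levels on all 12 arrays. It is 1 of 13966 gene probe sets in the series and 1 of the 131 genes that could be named. Its levels and differences between groups are therefore described here without a test.

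The series measured total RNA of C-S strain embryos on 12 arrays with 1 colour, 3 in each of 4 groups. Control embryos were taken at stages 9 to 11, which the titles call sensitive, and at stages 13 to 15, which they call resistant. They were set beside X-ray treated embryos of either window, collected 15 to 20 minutes after treatment. The labels give no genotype beyond the strain, and they state neither the sex nor the dose of X-rays. Whether the 3 arrays of a group came from separate collections is not stated, so the spread between them, and with it every SE and p-value, may be partly technical.

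Juvenile hormone is a sesquiterpenoid made by the corpora allata, which in flies become part of the ring gland, and it holds insect larvae in their juvenile state through the larval molts. The hormone carries an epoxide group and a methyl ester. Epoxide hydrolases of the Jheh family are membrane-bound enzymes of the microsomal type that open the epoxide to a diol, while juvenile hormone esterase removes the methyl ester, and both steps inactivate the hormone. In mammals the related microsomal epoxide hydrolase also detoxifies foreign epoxides. At stages 9 to 11 the germ band is extended and the segments form. At stages 13 to 15 the germ band has retracted, the dorsal side closes and organs such as gut, muscle and fat body differentiate.

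In the RefSeq gene order (assembly Release 6 plus ISO1 MT), Jheh1 is followed directly by its relatives Jheh2 and Jheh3 on 2R. An annotated antisense RNA gene, asRNA:CR46485, spans all of Jheh1. No source used here gives the strand that the probes read, so signal from the antisense transcript cannot be told apart from that of Jheh1. Jheh2 and Jheh3 have no probe set named here, and cross-reaction of the Jheh1 probes with them was not tested.

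The arrays differed by the replicate number in their titles, in every group alike. The arrays numbered 3 had weaker BioB spike-in signal (226 to 299 for its middle probe set, against at least 425 on the others) and a higher 5′ over 3′ ratio of eIF-4a (0.140 to 0.200, against at most 0.0798), which depends on RNA integrity and on the length of the labelled product. Because every number has an array in all 4 groups, differences of Jheh1 are given within each number as well as over all 3.

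Jheh1 was low in the earlier window and high in the later one. In control embryos at stages 9 to 11 its scaled intensity was 42.4, 66.4 and 41.9 on the arrays numbered 1, 2 and 3. In control embryos at stages 13 to 15 it was 264.7, 198.9 and 182.6. The lowest of the later arrays lay well above the highest of the earlier ones, and the groups did not overlap. Control groups without overlap, with the later one higher, were seen for 19.8% of the probe sets bright enough to be tested. In whole embryos, a change in the number of expressing cells cannot be told apart from a change in RNA per cell.

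The irradiated embryos showed the same order of the windows on 6 other arrays. At stages 9 to 11 the irradiated arrays numbered 1, 2 and 3 read 11.7, 9.1 and 48.4. At stages 13 to 15 they read 156.5, 152.3 and 148.6. The later arrays were again all higher, as for 18.2% of all tested probe sets. For Jheh1 the later arrays were also close to each other, while in the earlier window the array numbered 3 read several times the other 2.

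By mean intensity the groups ran in the order control at stages 13 to 15 (215 ± 43.5), irradiated at stages 13 to 15 (152 ± 3.95), control at stages 9 to 11 (50.2 ± 14.0) and irradiated at stages 9 to 11 (23.1 ± 22.0; SD, n = 3 each). Controls and irradiated embryos of the later window did not overlap, as for 4.25% of all tested probe sets with the irradiated group lower. All 6 later arrays lay above all 6 earlier ones, as for 11.0% of all tested probe sets. The 2 groups of the earlier window overlapped, because the irradiated array numbered 3 (48.4) read above the control arrays numbered 1 (42.4) and 3 (41.9). Not every array there followed the order of the means.

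**Figure D1:**
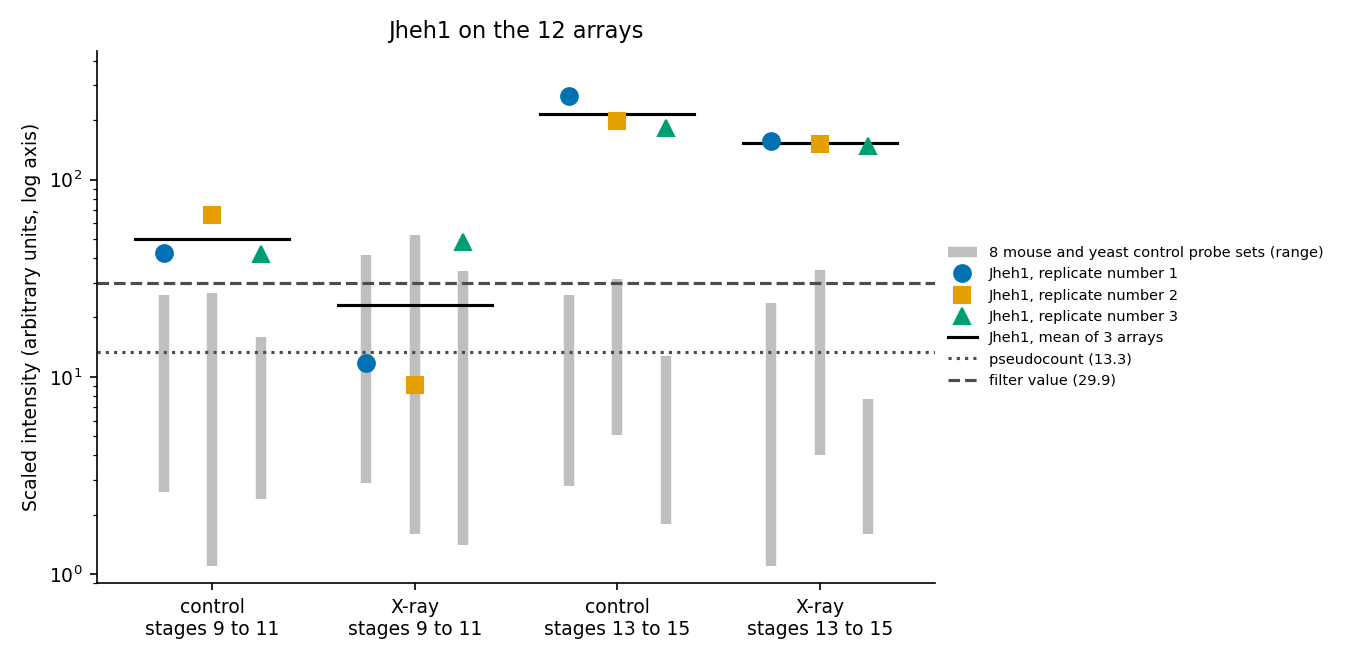
Scaled intensity of Jheh1 (log axis) on each of the 12 arrays, with groups by stage and treatment along the horizontal axis, symbols by replicate number, black lines for the mean of 3 arrays and grey bars for the range of 8 mouse and yeast control probe sets on the same array. All 6 later arrays (148.6 to 264.7) lie above all 6 earlier ones (9.1 to 66.4), and the irradiated arrays numbered 1 and 2 at stages 9 to 11 lie inside the grey bars.

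Differences were taken on the scale of log2(intensity + 13.3), a pseudocount equal to the 25th percentile of all values. On it Jheh1 was higher at stages 13 to 15 than at stages 9 to 11 by 1.85 ± 0.34 in control embryos and by 2.35 ± 0.34 in irradiated ones (SE of the limma fit, n = 3 each). The fit uses 1 spread for all 4 groups, so each SE also draws on groups that a comparison does not use. In controls the differences within numbers 1, 2 and 3 were 2.32, 1.41 and 1.83. In irradiated embryos they were 2.76, 2.89 and 1.39. All 6 same-numbered pairs had the same direction. The first 2 of the irradiated pairs set the later arrays against readings (11.7 and 9.1) below the pseudocount and inside the range of the array's mouse and yeast control probe sets, so their sizes, and that of the mean difference, are not exact. The mean difference in irradiated embryos ran from 1.47 with 4 times the pseudocount to 2.90 with low values raised to a floor, and was 2.81 without the irradiated array numbered 3 of the earlier window.

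Both stage differences stood high in the distribution over the 10139 probe sets that were bright enough to be tested. In controls 379 of them (3.74%) had a larger difference than Jheh1, and in irradiated embryos 174 (1.72%). Among the other named probe sets, 6 and 3 were larger. A large share of the array differed between the windows in limma (adjusted p under 0.05). In either direction, 2719 of the 10139 probe sets were called in controls and 2390 (23.6%) in irradiated embryos. In controls 12.3% were called higher at stages 13 to 15. Groups that did not overlap, with the later one higher, were seen for 19.8% in controls and 18.2% in irradiated embryos. All 6 later arrays above all 6 earlier ones, as for Jheh1, was seen for 11.0% of probe sets. Since its levels were used to choose Jheh1, nothing is read from its own place in these shares.

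**Figure D2:**
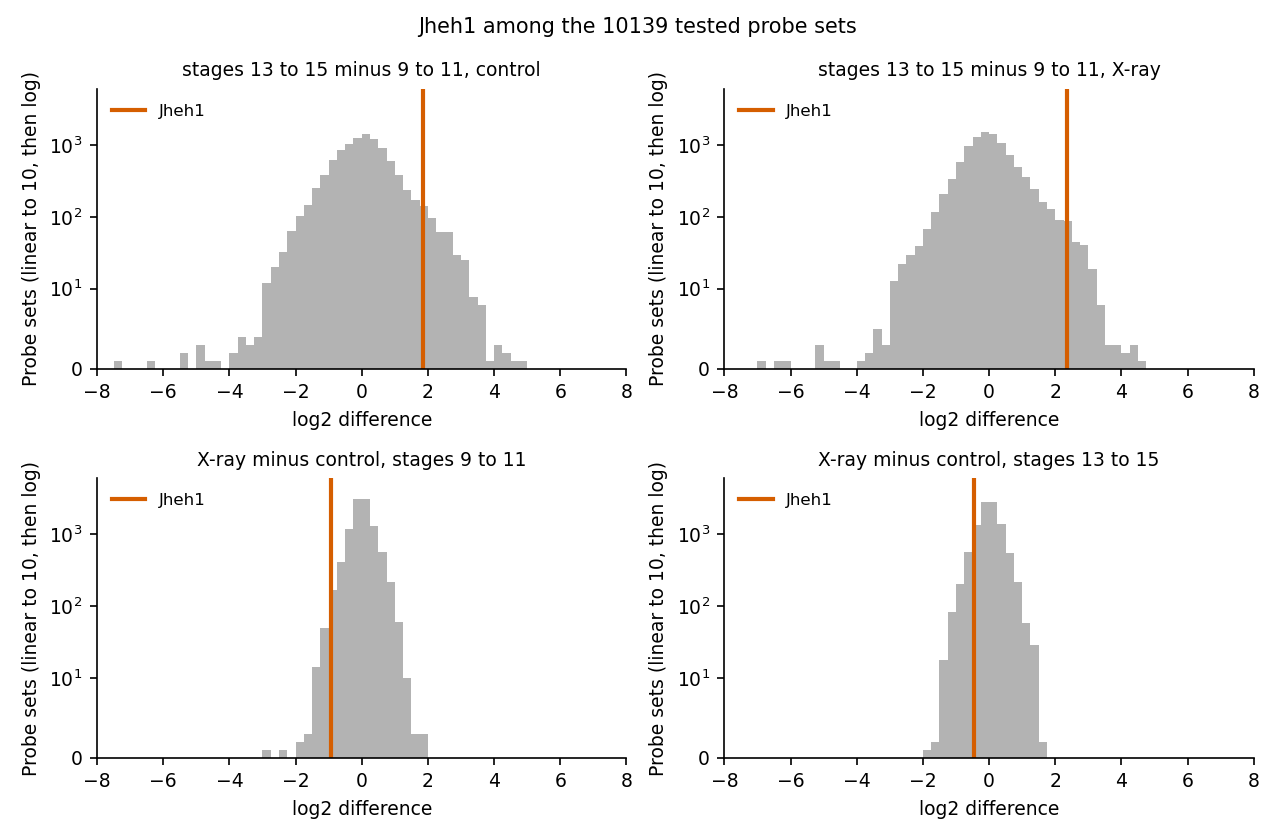
Histograms of the log2 differences of the 10139 tested probe sets (vertical axis, number of probe sets, linear to 10 and then logarithmic) for 4 comparisons, with Jheh1 as a vertical line. The line lies in the upper tail of both stage comparisons (1.85 and 2.35), in the lower tail of the X-ray comparison at stages 9 to 11 (−0.94) and nearer the centre of that at stages 13 to 15 (−0.45).

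After X-rays the mean level of Jheh1 was lower in both windows, and the pairs of the same number were lower in 5 of 6 cases. At least 5 of 6 such pairs were lower for 10.3% of all tested probe sets. The 2 windows differed in how closely the arrays agreed and in how near the readings came to the array background, so each is described in turn.

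At stages 9 to 11, the log2 difference of irradiated minus control embryos was −0.94 ± 0.34 (SE, n = 3 each). Within numbers 1 and 2 it was −1.16 and −1.83, and within number 3 it was 0.16. The intensity after X-rays was thus 0.276 and 0.137 of the control array of the same number in the first pairs, and 1.16 of it in the last. A lower difference was seen for 95 of the 10139 tested probe sets (0.937%) and for 1 of the other named probe sets, while the 5th percentile over all was −0.56.

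The size of this difference rests on readings near the background of the arrays. The irradiated arrays numbered 1 and 2 (11.7 and 9.1) lay below the pseudocount of 13.3 and below the filter value of 29.9 that was used to call a probe set bright enough, and were the only arrays of the 12 where Jheh1 did. As a guide to background, 8 control probe sets for mouse and yeast transcripts, chosen after the values were seen, had medians of 18.8 and 15.1 on these arrays and highest readings of 41.5 and 52.6. These were the highest medians among the 12 arrays, which otherwise ran from 5.25 to 13.6. On the irradiated array numbered 3 the median was 5.95 and the highest reading 34.3, below the 48.4 of Jheh1. The part of the array background in the X-ray difference was not tested.

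The spread of Jheh1 among the irradiated arrays of the earlier window was an SD of 0.80 on the log2 scale, larger than in the other 3 groups (0.03 to 0.30). Of all tested probe sets, 11.3% had a larger SD in that group. Without the irradiated array numbered 3 the X-ray difference at stages 9 to 11 was −1.40, and without all 4 arrays numbered 3 it was −1.49. With 4 times the pseudocount, which weighs low readings less, it was −0.47.

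At stages 13 to 15, where all readings were far above the background guide, the log2 difference of irradiated minus control embryos was −0.45 ± 0.34 (SE, n = 3 each). This SE comes from the spread shared by all 4 groups. It was 0.25 without the irradiated array numbered 3 of the earlier window, which this difference does not use. Within numbers 1, 2 and 3 the difference was −0.71, −0.36 and −0.28. The irradiated arrays read 0.591, 0.766 and 0.814 of the control array of the same number. The groups did not overlap, with the highest irradiated array (156.5) below the lowest control array (182.6). Groups that do not overlap with the irradiated one lower were seen for 4.25% of all tested probe sets, and a lower difference than that of Jheh1 for 10.6%. The 3 irradiated arrays had an SD of 0.03 on the log2 scale, and 98.8% of probe sets had a larger SD in that group. The control array numbered 1 (264.7) carried part of the difference, which was −0.30 without it.

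The X-ray difference at stages 9 to 11 minus that at stages 13 to 15 was −0.49 ± 0.48 (SE), with −0.44, −1.47 and 0.44 within numbers 1, 2 and 3. The numbers did not share a direction. Without the irradiated array numbered 3 of the earlier window this value was −0.95, and with 4 times the pseudocount it was −0.09.

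**Figure D3:**
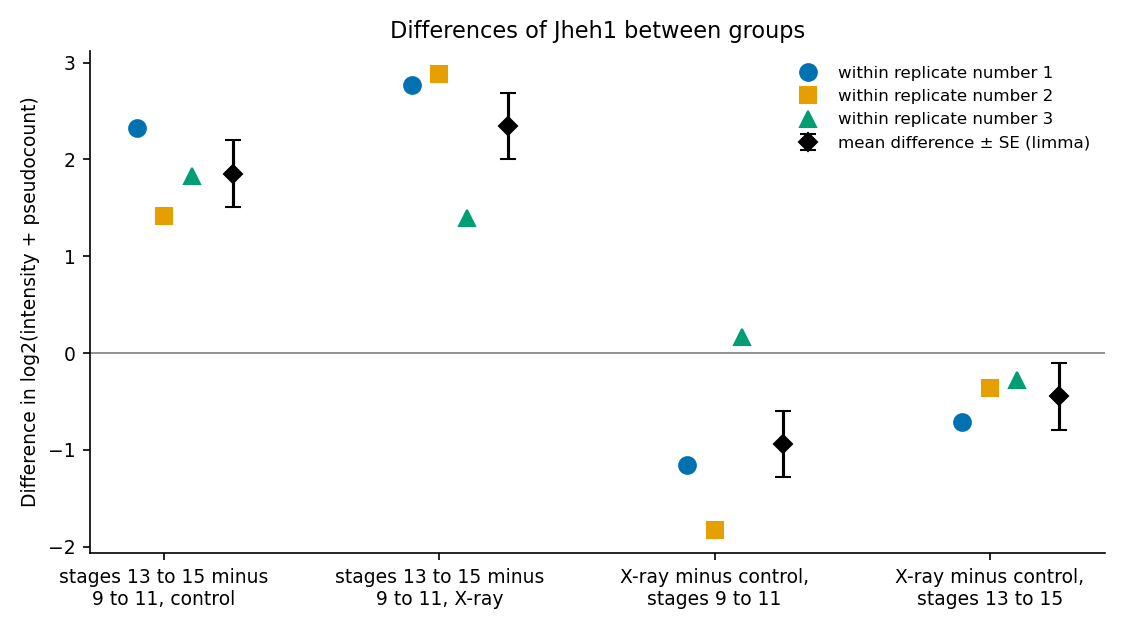
Differences of Jheh1 in log2(intensity + 13.3) for the 4 comparisons on the horizontal axis. Coloured symbols are pairs of the same replicate number, and black diamonds with bars are the mean difference ± SE from limma. The 6 stage pairs lie between 1.39 and 2.89, and the X-ray pairs between −1.83 and 0.16, with the pair numbered 3 at stages 9 to 11 alone above 0.

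Likeness to Jheh1 was measured as the root mean square difference between log2 levels over the 12 arrays, each probe set centred on its own mean. Among 10138 other tested probe sets, the closest was 153323_AT, which reads CG17896, a gene listed under its annotation number only, at 0.33 log2 units. The next, 152059_AT, has no name here and stood at 0.35. Among the 108 named probe sets compared, the next closest to Jheh1 were Shmt (0.57), Taldo (0.66), betaTub60D (0.67) and CG9547 (0.69). With unnamed probe sets counted they ranked only 58, 181, 196 and 247 of the 10138, so many unnamed probe sets were closer. These genes were chosen by their values, so what follows describes them.

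CG17896 read 63.4, 119.3 and 102.5 in control embryos at stages 9 to 11 (numbers 1, 2 and 3) and 54.7, 24.1 and 92.6 in irradiated ones. At stages 13 to 15 it read 262.7, 308.5 and 273.4 in controls and 271.8, 260.9 and 240.9 after X-rays. Like Jheh1 it was higher in the later window on all arrays and lowest on the irradiated array numbered 2 of the earlier window. Unlike Jheh1, its irradiated array numbered 1 (54.7) was close to the control array of that number (63.4). Its X-ray log2 differences were −0.71 ± 0.31 at stages 9 to 11, with −0.17, −1.83 and −0.13 within numbers, and −0.12 ± 0.31 at stages 13 to 15 (SE).

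152059_AT read 106.2, 74.8 and 64.3 in controls and 38.5, 17.4 and 50.7 in irradiated embryos of the earlier window, where its groups did not overlap, as for 3.06% of all tested probe sets with the irradiated group lower. In the later window its 6 arrays read 204.6 to 298.9. Its X-ray log2 differences were −1.0 ± 0.28 at stages 9 to 11 and −0.11 ± 0.28 at stages 13 to 15 (SE). Within numbers 1, 2 and 3 of the earlier window they were −1.21, −1.52 and −0.28, so the pair numbered 3 had the smallest difference, as it did for CG17896.

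The remaining 4 named genes were higher in the later window, like Jheh1. Their X-ray differences at stages 9 to 11, given below, were smaller in size than that of Jheh1. On levels centred on its own mean, Shmt also differed from Jheh1 on the control arrays of that window. Shmt, the gene for the one-carbon enzyme serine hydroxymethyltransferase, differed between windows by 2.90 ± 0.28 in controls and by 2.60 ± 0.28 in irradiated embryos (log2 difference ± SE). Its 6 arrays of the earlier window read 8.2 to 17.4, below the filter value, so these sizes depend on readings close to background. Taldo, encoding transaldolase of the pentose phosphate pathway, differed by 1.26 ± 0.19 in both. betaTub60D, a tubulin of the developing mesoderm and muscle, differed by 2.61 ± 0.17 and 2.77 ± 0.17. CG9547, listed under its annotation number, differed by 2.08 ± 0.40 and 1.49 ± 0.40. Its 6 earlier arrays (8.0 to 17.9) also lay below the filter value, and with other pseudocounts or a floor these differences ran from 1.18 to 2.71 and from 0.85 to 2.07.

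The X-ray differences of these 4 genes at stages 9 to 11 were −0.09 for Shmt, −0.04 for Taldo, 0.16 for betaTub60D and 0.11 for CG9547, against −0.94 for Jheh1. Since Shmt and CG9547 read close to background in the controls of that window already, a decrease of either could hardly be seen. At stages 13 to 15 the X-ray differences of the 4 genes, in the same order, were −0.38, −0.05, 0.31 and −0.48, against −0.45 for Jheh1. The value of CG9547 rests on its irradiated array numbered 2 (26.5, beside 128.5 and 76.4 on the others), with 0.34, −1.57 and −0.21 within numbers, and was 0.02 without that array. Each of these comparisons uses the same arrays for all genes. In the later window the irradiated arrays of Shmt (116.6 to 163.8) did not overlap with its controls (171.9 to 181.8), as for Jheh1, while those of Taldo, betaTub60D and CG9547 did. Groups without overlap there, with the irradiated one lower, were seen for 4.25% of all tested probe sets. When likeness was measured over the 4 group means in place of the 12 arrays, the closest named genes were CG17896, Got2 (a mitochondrial aspartate aminotransferase), CG9547, Strn-Mlck and CG31743, of which 2 are shared with the list above.

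**Figure D4:**
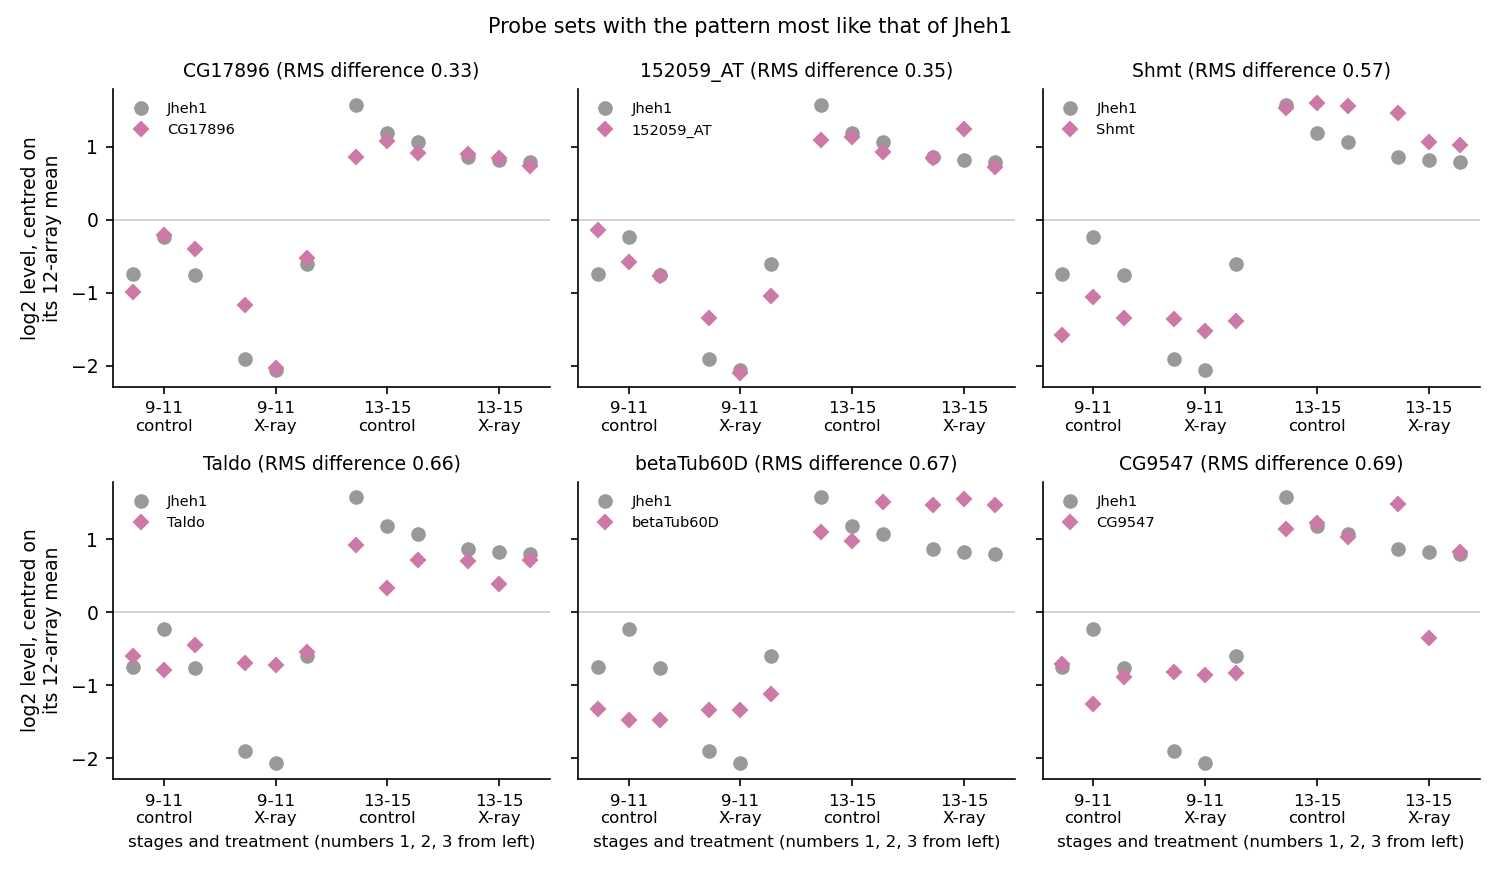
Log2 levels centred on the 12-array mean (vertical axis) for Jheh1 in grey and for 6 probe sets in pink, by group and, within a group, by replicate number from left to right. CG17896 and 152059_AT follow Jheh1 down on the irradiated array numbered 2 at stages 9 to 11. Shmt, Taldo, betaTub60D and CG9547 vary less than Jheh1 across the 6 arrays of the earlier window. On those arrays Shmt and CG9547 read below the filter value, so a decrease could hardly be seen.

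Few other genes of the hormone pathways could be read by name. Of 59 genes in lists for juvenile hormone breakdown, synthesis and signalling, ecdysone synthesis, breakdown and signalling, and detoxification, 3 had a named probe set (Jheh1, Hsp83 and Cyp6a2) and 2 were bright enough to be tested. No gene of juvenile hormone synthesis, such as the methyltransferase gene jhamt, and none of the ecdysone lists is analysed here. Hsp83, the only tested gene of the 8 in the juvenile hormone signalling list, encodes the chaperone Hsp90, which binds the hormone receptor Met.

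Hsp83 read 707.8, 789.6 and 1193.9 in controls at stages 9 to 11 and 1341.4, 1503.2 and 2000.9 at stages 13 to 15. It rose between the windows in controls by 0.86 ± 0.21 (log2 difference ± SE, limma adjusted p = 0.00604), a comparison in which 12.3% of probe sets rose. In irradiated embryos Hsp83 rose by 1.01 ± 0.21 (limma adjusted p = 0.00214), where 23.6% of probe sets differed in either direction. Counted in either direction, 2719 probe sets were called in controls and 2390 in irradiated embryos. After X-rays its values were −0.14 ± 0.21 at stages 9 to 11 and 0.02 ± 0.21 at stages 13 to 15, and neither passed (adjusted p = 1.00 in limma for both). Of all probe sets, 0.0197% passed in the former comparison and 0.0% in the latter. An unadjusted p under 0.05 was seen for 312 (3.08%) in the former and 503 (4.96%) in the latter.

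Cyp6a2, a cytochrome P450 gene of insecticide detoxification, read 4.3 to 19.7 over the 12 arrays, below the filter value of 29.9 on each of them, and was not tested. The embryo as a whole could be checked against 4 tested marker genes of 38 listed for embryonic tissues. The muscle marker betaTub60D is given above. The other muscle marker, Strn-Mlck, read 22.2 to 76.4 in controls of the later window and 3.8 to 6.7 in those of the earlier one, below the pseudocount, so its log2 difference of 1.73 ± 0.45 (limma adjusted p = 0.00899) is not an exact size. It ran from 0.82 to 2.58 with other pseudocounts, and the call did not hold when the arrays numbered 3 were left out (adjusted p = 0.10). The epidermal segment marker en was lower in the later window, by −1.98 ± 0.25 in controls and −1.17 ± 0.25 in irradiated embryos (limma adjusted p = 3.26e-05 and 0.00278). Lsd-2, listed for the fat body, differed by 0.32 ± 0.26 in controls and did not pass (limma adjusted p = 0.405, and 0.12 to 0.65 without 1 array). In irradiated embryos it was higher by 1.06 ± 0.26 (limma adjusted p = 0.00704), within all 3 numbers. Its groups did not overlap there, as for 18.2% of all tested probe sets with the later group higher. Calls between windows were common. In either direction, 2719 probe sets were called in controls and 2390 (23.6%) in irradiated embryos. In controls 12.3% were called higher. The share called lower is not given here. No marker of gut, Malpighian tubule or ring gland is analysed here, so the tissue that carried the Jheh1 signal was not tested.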

How the data were processed

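The authors' deposited table holds intensities on a linear scale for 14010 probe sets, 44 of them array controls. No source used here gives the scanner software, normalization or background correction. The trimmed means of the arrays (2% at each end) lie within 0.00230% of each other. The deposited values were therefore taken as scaled already and were not normalized again, and a change of total signal would not be seen. Probe sets were named through the synonyms of a RefSeq gene table, which matched 133 probe sets (131 genes).

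Intensities were taken as log2(value + 13.3), the 25th percentile of all values, which understates changes of weak signals. Probe sets above 29.9 (40th percentile) on at least 3 of the 12 arrays were kept, leaving 10139, with 109 named. limma 3.58.1 in R 4.3.3 fitted 4 group means over all of them (eBayes with a trend, 8 residual and 7.26 prior degrees of freedom), with 2-sided tests and Benjamini-Hochberg adjustment at 0.05. The code was tested on simulated data. No p-value is given for Jheh1 or for the genes chosen by likeness to it. Named were the 5 named genes and 2 probe sets with the smallest root mean square difference, and every list gene with a named probe set. The gene and the lists were chosen with earlier results of these data known. The number of arrays limits the precision. Alternatives were other scalings, pseudocounts, filters and moderation, the replicate number as a block and leaving out arrays.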

Additional observations from a re-analysis of the deposited data

How the results depend on the processing

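Every one of the 5 differences of Jheh1 kept its direction under 19 alternatives each. Part of these could not turn it. Leaving out an array of a group that a difference does not use, or adding the block, returns the same value. With 4 times the pseudocount the stage difference was 1.37 in controls and 1.47 in irradiated embryos, and the X-ray difference at stages 9 to 11 was −0.47. The stage difference in irradiated embryos was 2.87 with 0.25 times the pseudocount and 2.90 with low values raised to a floor in place of a pseudocount. Without the 4 arrays numbered 3 it was 2.82, the X-ray difference at stages 9 to 11 was −1.49 and the difference between the X-ray differences −0.96. Leaving out 1 array gave stage differences of 1.70 to 2.03 in controls and 2.08 to 2.81 in irradiated embryos, X-ray differences of −1.40 to −0.67 at stages 9 to 11 and −0.55 to −0.30 at stages 13 to 15, and −0.95 to −0.22 for the difference between them. For the 3 differences that use it, the largest of these moves came without the irradiated array numbered 3 of the earlier window. The pseudocount acts on readings below or near it, which Jheh1 had on 2 arrays, and the cause of the other moves was not tested. Centring each array on its median shifted all probe sets by −0.16 in the stage comparison of controls, which left 1.69 for Jheh1.

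With the replicate number as a block the differences of Jheh1 (1.85, 2.35, −0.94 and −0.45) could not move, because every number has 1 array in each group. Only the SE could change, and it was 0.35. Same-numbered arrays of different groups correlated at 0.0139 to 0.435 in their deviations from the group means, over 0.1 in 10 of 18 pairs. For the arrays numbered 3 all 6 pairs did (0.152 to 0.435), and of the 36 pairs with different numbers 2 did (lowest −0.283). In 30 of 36 cases an array correlated best with its own number, among the 3 arrays of another group. Deviations from a group mean cancel within the group, so the pairs and cases are not independent. Pairs with different numbers are pushed down where same-numbered ones are high. The correlations are a hint from the data, not the design, that arrays of 1 number deviate together, those numbered 3 most. The labels do not say what a number marks. The counts of called probe sets went from 2719 to 3180 and from 2390 to 2881 for the stage comparisons with the block, and were 3 and 0 for X-rays. The X-ray count at stages 9 to 11, 2 in the fit reported, was 1 with low values raised to a floor, 0 without the trend in the moderation, 9 without the arrays numbered 3 and 0 to 3 without 1 array. At stages 13 to 15 it was 1 without the arrays numbered 3 and 0 to 1 without 1 array.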
